A study of Mus musculus with 2 samples.

Results

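Open chromatin at the 3′ ends of protein-coding genes was described in mouse granulocyte monocyte progenitors (GMP), which mature in bone marrow into neutrophils and monocytes. It was mapped by ATAC-seq, in which the Tn5 transposase cuts accessible DNA and the cut fragments are sequenced. Per the labels, the cells were primary GMP of male adult C57BL/6J mice aged 5 to 6 weeks, with no treatment or engineered allele named, and each library started from 50000 cells. The single group held 2 biological replicates that carry separate biosample identifiers and the same donor label, and their sorting is not described in the sources used here. Every result is therefore a description of 1 cell type, with the lists of replicate 1 and replicate 2 as the only check between samples.

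A region counted here had its summit, the position of highest signal, within 1 kb of the annotated 3′ end of a protein-coding gene, outside coding sequence and over 1 kb from the transcription start site (TSS) of every protein-coding transcript of such a gene. Of the 75148 open regions in the list called on the reads of both replicates, here named the joint list, 1387 (1.85%) met this rule, and together they covered 657.1 kb. The same rule gave 1181 of 65423 regions (1.81%) in the list of replicate 1 and 925 of 53686 regions (1.72%) in that of replicate 2. They are set beside 56988 other distal regions: 28702 in introns of protein-coding genes and 28286 elsewhere. These also lie over 1 kb from every such TSS and outside coding sequence, but have no gene end within 1 kb. Beyond that limit, distances to a TSS were not matched between the classes. The remaining regions were 15570 at promoters and 1203 in distal coding exons.

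The 3′ end of a gene is where its transcript is cut and polyadenylated, directed by a poly(A) signal just before the cut. RNA polymerase II runs on past that point before it terminates, so the DNA downstream is also transcribed. Enhancers, stretches of DNA that bind transcription factors and act on a promoter at a distance, can lie in 3′ untranslated regions (3′ UTRs) and in the DNA behind a gene, as can sites of CTCF, the zinc finger protein that sets the borders of chromatin loops together with cohesin. In myeloid progenitors, PU.1, the C/EBP factors and RUNX1 are the transcription factors best known for opening such elements.

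The label of the cells was checked on promoters. All 8 promoters of GMP and myeloid genes fixed for this purpose (Mpo, Elane, Ctsg, Ms4a3, Csf3r, Cebpa, Spi1 and Cebpe) were open in the list of both replicates together and in that of each replicate. Of the promoters of other lineages, 2 of 4 erythroid, 2 of 3 megakaryocyte, 2 of 4 B cell, 1 of 5 T and NK cell, 1 of 2 hepatocyte and 1 of 2 muscle promoters were open in the list of both replicates together. Those of Klf1, Cd79a, Cd3e, Cd8a, Alb and Myod1 were among those without a region.

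The letters at some of these summits carry the motif results given further on. The following windows of 101 bases are centred on the summits with the highest fold enrichment that hold a match to the CTCF motif and lie outside annotated UTRs, with that of Ebf1, a gene of the B cell list, added. Fold enrichment, called fold from here on, is the authors' ratio for a region, whose denominator the sources used here do not state. All sequences are from GRCm38.p6, which has the chromosomes of mm10, read 5′ to 3′ on the strand of the gene, and capitals mark the match.
Csrp1, chr1:135753087-135753187, plus strand: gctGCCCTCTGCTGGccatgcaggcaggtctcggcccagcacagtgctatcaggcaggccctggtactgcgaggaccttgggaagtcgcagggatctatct
Scgb1a1, chr19:9082605-9082705, minus strand: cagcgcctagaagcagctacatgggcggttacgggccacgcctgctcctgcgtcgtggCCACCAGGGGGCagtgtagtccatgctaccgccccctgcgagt
Ebf1, chr11:45008256-45008356, plus strand: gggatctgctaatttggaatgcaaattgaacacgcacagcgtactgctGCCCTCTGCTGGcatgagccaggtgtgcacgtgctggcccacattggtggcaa
At Csrp1 and Ebf1 the match lies on the strand opposite to the gene, and at Scgb1a1 on the gene's own strand.

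A second set shows windows with the 8-letter motif used for PU.1 (GAGGAAGT), again the highest folds outside UTRs, with that of Irf4, a myeloid transcription factor, added.
Colgalt2, chr1:152511377-152511477, plus strand: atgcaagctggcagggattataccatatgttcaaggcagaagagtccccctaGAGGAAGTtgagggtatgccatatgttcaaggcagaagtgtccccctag
Arhgef38, chr3:133111860-133111960, minus strand: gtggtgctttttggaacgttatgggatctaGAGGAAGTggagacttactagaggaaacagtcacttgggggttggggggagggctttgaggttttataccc
Irf4, chr13:30767009-30767109, plus strand: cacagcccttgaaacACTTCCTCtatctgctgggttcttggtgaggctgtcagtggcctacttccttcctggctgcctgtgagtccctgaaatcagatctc
The summit behind Irf4 sits 83 bp past the end of the gene, whose last 30 bases hold the poly(A) signal, here in capitals.
Irf4 gene end, chr13:30766947-30766976, plus strand: aatatttgataAATAAAggatttctagaaa

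Matches to the C/EBP motif (TTGCNNAA) are shown for the 2 highest folds outside UTRs and for Ctsc, whose product, cathepsin C, activates the serine proteases of neutrophil granules.
Fam98a, chr17:75536800-75536900, minus strand: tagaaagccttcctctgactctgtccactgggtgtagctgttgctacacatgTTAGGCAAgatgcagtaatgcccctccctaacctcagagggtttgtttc
Gm10282, chr8:72303882-72303982, minus strand: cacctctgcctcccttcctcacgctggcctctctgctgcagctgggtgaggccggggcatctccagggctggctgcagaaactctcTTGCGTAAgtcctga
Ctsc, chr7:88310907-88311007, plus strand: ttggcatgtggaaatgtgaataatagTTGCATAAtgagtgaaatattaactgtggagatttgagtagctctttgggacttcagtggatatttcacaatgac
Where the summit lies in a 3′ UTR, only 30 bases around the match are given, here for 2 genes of myeloid granules and enzymes and for Rab3c, the region with the highest fold of all with this motif.
Lyz1, chr10:117288403-117288432, minus strand: ctgatgctgtgTTGTGCAAagtctcccttg
Mmp8, chr9:7567530-7567559, plus strand: tgttcatagagTTGAGCAAtgtcaaatgtc
Rab3c, chr13:110054648-110054677, minus strand: acaaggcgttaTTGCCTAAtcccacatcac
The RUNX motif (TGTGGTT) is shown at its highest fold outside UTRs, behind Itpr2, a calcium channel of the endoplasmic reticulum.
Itpr2, chr6:146107599-146107699, minus strand: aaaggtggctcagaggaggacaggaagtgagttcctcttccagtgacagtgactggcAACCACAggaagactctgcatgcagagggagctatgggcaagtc

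Summits were sparse at the gene end itself. Along the 2 kb around the end, counted in bins of 100 bp per Mb of eligible DNA (DNA outside coding sequence and over 1 kb from every protein-coding TSS), the last 100 bp of the gene held 22 summits, or 11.6 per Mb. The next 100 bp inside the gene held 75 (42.3 per Mb), the first 100 bp downstream 50 (25.2 per Mb), and the bin from 200 to 300 bp downstream 102 (52.4 per Mb), the highest of the 20 bins. Both replicate lists showed the same low point, at 11.6 per Mb in replicate 1 and 8.41 per Mb in replicate 2, and both had their highest value at 200 to 300 bp downstream, at 45.7 per Mb in replicate 1 and 41.1 per Mb in replicate 2.

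**Figure D1:**
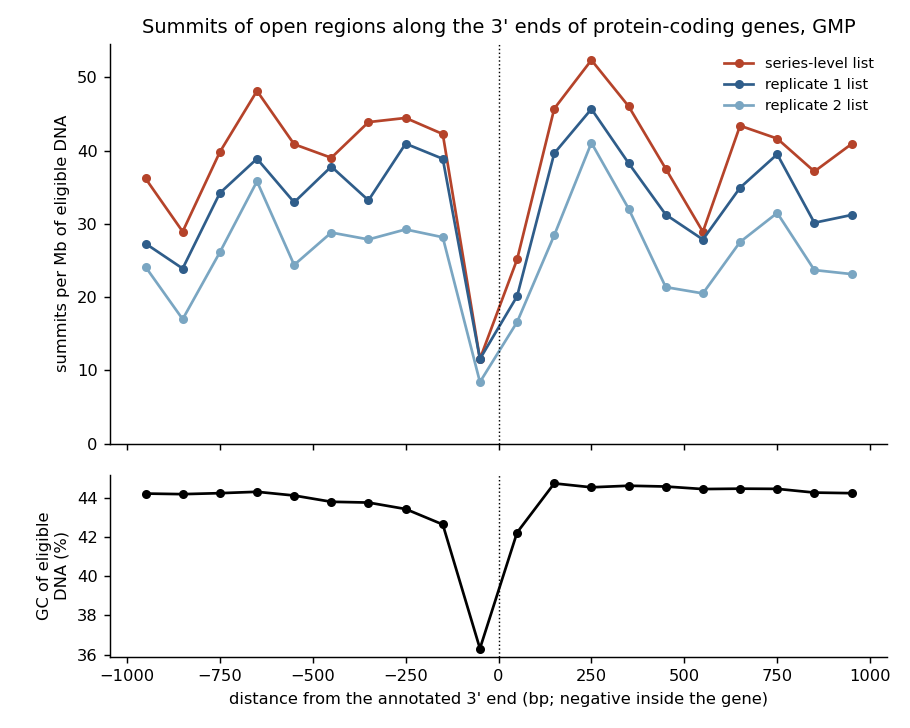
The upper panel plots summits per Mb of eligible DNA (y axis) in 100 bp bins by distance from the annotated 3′ end (x axis, bp, negative inside the gene) for the list of both replicates and for each replicate's list. The lower panel plots the GC percentage of the same DNA. The last 100 bp of the gene had the lowest density, 11.6 per Mb, and the lowest GC percentage, 36.3%.

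Base composition moved with this profile. GC made up 36.3% of the eligible DNA in the last 100 bp of the gene and 42.2% in the first 100 bp downstream, against 42.7% to 44.8% in the other 18 bins. Across all eligible DNA, density rose with the GC percentage of the surrounding 101 bp, with 3.06 summits per Mb where it was under 40%, 23.3 per Mb at 40 to 50%, 65.1 per Mb at 50 to 60% and 159.6 per Mb at 60% or more. DNA under 40% GC made up 61.6% of the last 100 bp of genes, 35.1% of all DNA within 1 kb of gene ends and 44.5% of all eligible DNA.

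Within each band of GC the density in the last 100 bp was below that farther inside and farther downstream, but on few summits. At 40 to 50% GC the last 100 bp held 6 summits (11.9 per Mb), against 31.2 per Mb from 1000 to 100 bp inside the end and 30.5 per Mb from 100 to 1000 bp downstream. At 50 to 60% GC it held 13 summits (63.0 per Mb), against 74.5 per Mb inside and 80.8 per Mb downstream. Under 40% GC it held 2 summits (1.71 per Mb), against 4.33 per Mb inside and 3.46 per Mb downstream. At 60% GC or more it held 1 summit (45.6 per Mb), against 202.4 per Mb inside and 249.5 per Mb downstream. With at most 13 summits in any of these bands in the last 100 bp, the counts are too few to establish a low point within a band. The part of base composition in the low point was not tested.

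**Figure D2:**
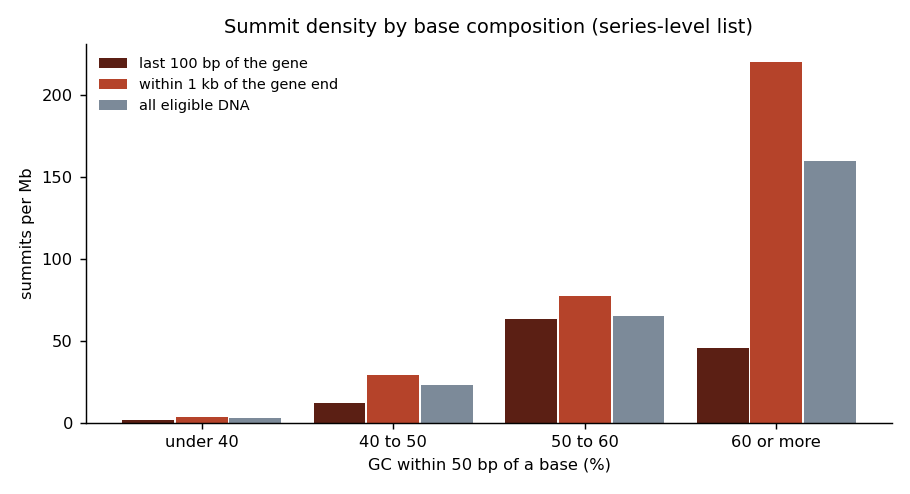
Summits per Mb of DNA (y axis) are plotted by the GC percentage of the 101 bp around each base (x axis, 4 bands) for the last 100 bp of genes, for all DNA within 1 kb of a gene end and for all eligible DNA. Within 1 kb of gene ends the density was 3.65, 29.3, 77.3 and 219.8 per Mb from the lowest to the highest band, against 3.06, 23.3, 65.1 and 159.6 per Mb in all eligible DNA; the bar for the last 100 bp at 60% or more rests on 1 summit.

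Over longer distances the gene end did not stand out from its surroundings. Within 1 kb of gene ends there were 38.6 summits per Mb, made up of 37.2 inside and 39.9 downstream. From 1 to 5 kb away the density was 36.8 per Mb inside genes and 45.0 per Mb downstream, and from 5 to 10 kb it was 35.9 and 40.7 per Mb on the same sides. DNA over 10 kb from every gene end held 20.6 per Mb, and all eligible DNA 22.9 per Mb. The highest 1 kb bin lay 2 to 3 kb downstream, with 49.9 per Mb in the list of both replicates, 44.5 per Mb in replicate 1 and 33.3 per Mb in replicate 2.

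Downstream summits numbered 763 (55.0%) and inside summits 624, while 53.3% of the eligible DNA within 1 kb lay downstream. The limit of 1 kb cut through an even profile: the 133 regions at 901 to 1000 bp had a median fold of 7.38 at 421 bp median width, and the 135 regions just outside, at 1001 to 1100 bp, had 7.68 at 378 bp. By annotation, 606 summits (43.7%) were intergenic, 511 (36.8%) lay in a 3′ UTR and 188 (13.6%) in an intron of a protein-coding gene. The rest were 24 in a noncoding exon of a protein-coding gene, 23 in an exon and 31 in an intron of a noncoding gene, and 4 in a 5′ UTR. Of the downstream summits, 157 lay inside another gene.

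**Figure D3:**
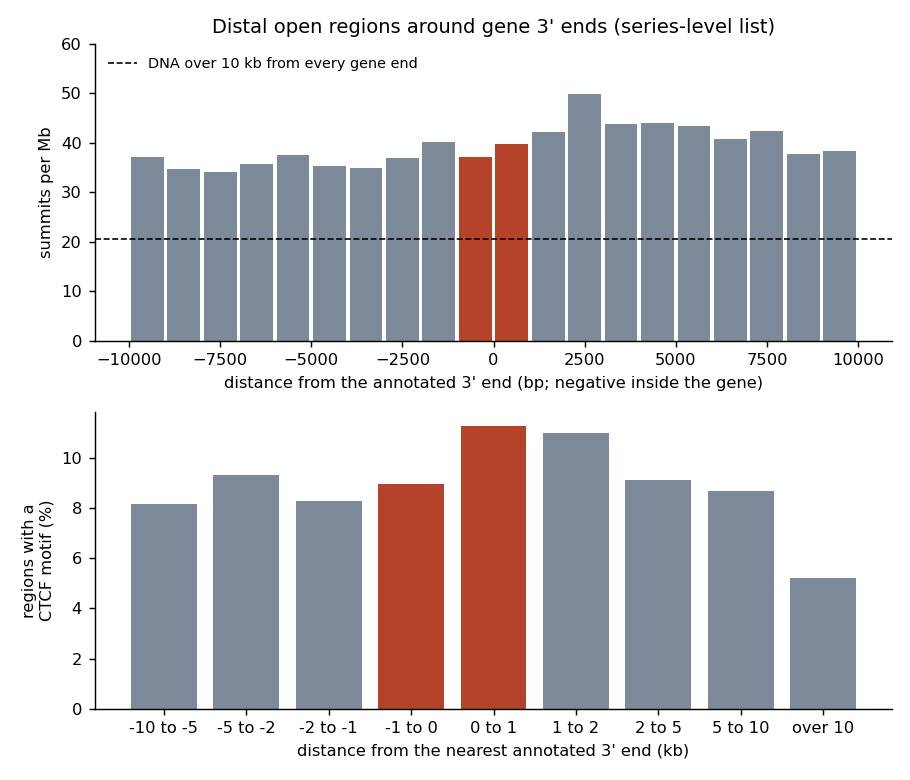
The upper panel plots summits per Mb of eligible DNA (y axis) in 1 kb bins within 10 kb of gene 3′ ends (x axis, bp), with the bins of the regions described here in red and a dashed line at 20.6 per Mb for DNA over 10 kb from every gene end. The lower panel plots the percentage of distal regions with a CTCF motif by distance from the nearest gene end (x axis, kb); it was 8.97% inside and 11.3% downstream within 1 kb, and 5.22% over 10 kb away.

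These regions, like the distal regions next to them, had slightly lower folds than distal regions far from gene ends. Their median fold was 7.43, with the middle 80% between 4.38 and 12.2 and the full range from 2.39 to 19.7, against 7.93 at other distal regions and 8.09 over all regions. The median was lower than that of other distal regions on 18 of 20 chromosomes, and in each replicate's own list, at 8.55 against 9.02 in replicate 1 and 7.05 against 7.57 in replicate 2. With the regions of the series divided into 4 equal parts by fold, 31.6% of the regions at gene ends fell in the weakest part and 17.95% in the strongest, against 25.5% and 22.7% of other distal regions. Distal regions nearby had median folds of 7.37 inside genes and 7.34 downstream from 1 to 2 kb, 7.39 and 7.56 on the same sides from 2 to 5 kb, and 7.53 and 7.59 from 5 to 10 kb, and those over 10 kb from every gene end had 8.004. Median width at gene ends was 411 bp, against 431 bp at other distal regions, and narrower on 11 of 20 chromosomes.

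Distance from a promoter went with fold. The 133 regions with a protein-coding TSS 1 to 2 kb away had a median fold of 5.90, and the 631 with none within 10 kb had 8.09. The nearest protein-coding TSS belonged to the same gene for 808 regions and to another gene for 579, at a median distance of 8536 bp over all 1387. Regions with gene ends of both strands within 1 kb, as at convergent genes, numbered 77 and had a median fold of 7.08. A TSS of a noncoding gene lay within 1 kb of 69 regions (4.98%), most often of an antisense RNA (28), against 5.09% of other distal regions and 6.67% of all regions.

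The overlap with the replicates' own lists was close to that of other distal regions. The joint list was called on the reads of these same replicates. The authors also label it as thresholded by IDR, the irreproducible discovery rate, a filter on reproducibility. Its overlap with the replicates' lists is therefore not an independent check. A region of the thresholded list of both replicate 1 and replicate 2 overlapped 860 of them (62.0%), against 61.7% of other distal regions and 66.1% of all regions. A further 242 were met by a region of replicate 1 alone, 54 by one of replicate 2 alone and 231 (16.7%) by neither; these last had a median fold of 5.05. Among the 249 regions in the strongest of the 4 parts by fold, 243 (97.6%) were in both lists, against 97.5% of other distal regions and 98.1% of all regions in that part. In the weakest part the share was 33.8%, against 26.6% of other distal regions and 30.3% of all regions. In the 860, replicate 1 gave the higher fold in 805 and replicate 2 in 55, with medians of 9.37 and 7.23. Their folds had a Pearson correlation of 0.88 across the 860 regions, which share the same 2 libraries and are not independent. The 5 largest differences ran from 7.53 to 9.25 in favour of replicate 1 and from 0.91 to 2.54 in favour of replicate 2, where the sign of the recorded difference is -0.91 to -2.54.

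CTCF motifs were more frequent here than at other distal regions. A match within 50 bp of the summit was found in 142 of 1387 regions (10.2%), against 5.90% of other distal regions, 5.01% of all regions and 1.23% of promoter regions. In windows 500 bp to each side of the same summits the share was 0.108%. The share exceeded that of other distal regions on 18 of 20 chromosomes, and in each replicate's list, at 10.4% against 5.93% in replicate 1 and 8.11% against 5.13% in replicate 2. With the midpoint of each region in place of its summit the shares were 6.75% and 3.85%.

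The higher CTCF share extended well past the gene end. Inside genes it was 8.97% within 1 kb of the end, 8.29% from 1 to 2 kb, 9.32% from 2 to 5 kb and 8.18% from 5 to 10 kb. Downstream it was 11.3% within 1 kb, 10.99% from 1 to 2 kb, 9.12% from 2 to 5 kb and 8.69% from 5 to 10 kb. Distal regions over 10 kb from every gene end had 5.22%. Base composition moved with it: the summit windows at gene ends had a median GC of 53.5%, against 50.5% at other distal regions. In windows of 40 to 50% GC the CTCF shares were 4.65% at gene ends and 4.22% at other distal regions, in those of 50 to 60% they were 13.7% and 7.51%, and in those of 60% or more 10.8% and 7.74%.

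The 142 regions with a CTCF motif differed from the other 1245 in shape. Their median width was 309 bp, against 426 bp without the motif, at nearly equal median folds of 7.41 and 7.43. Other distal regions showed a similar gap in width, with 322 bp with the motif and 438 bp without. Both replicates' lists met 49.3% of them, against 63.5% of those without it; at other distal regions the shares were 54.0% with the motif and 62.2% without. The list of replicate 1 met 76.8% of the 142 and 79.8% of the 1245, and that of replicate 2 met 53.5% and 67.3%. Of the 142, 86 lay downstream of the gene end, and 80 of the matches were on the strand of the gene and 62 on the other.

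**Figure D4:**
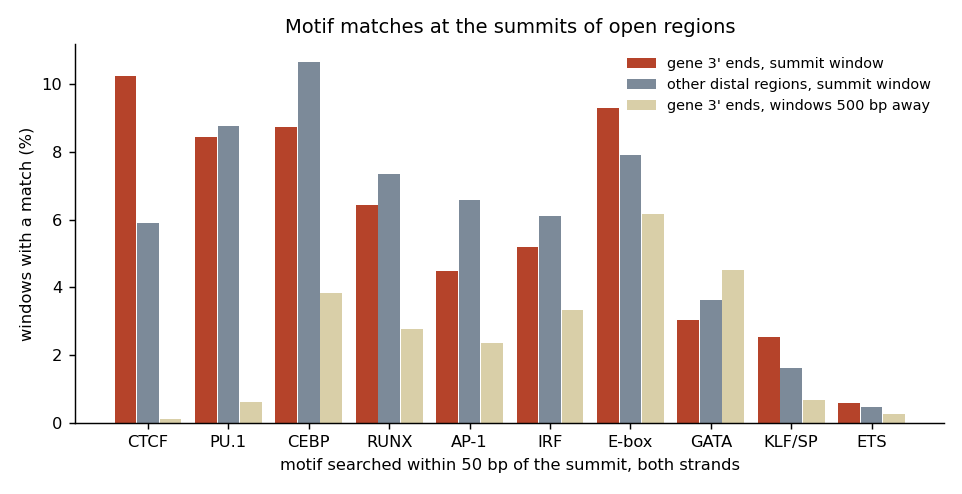
Percentage of 101 bp windows with a match (y axis) for 10 motifs (x axis), at the summits of open regions at gene 3′ ends, at the summits of other distal regions and in windows 500 bp to each side of the gene end summits. CTCF was found in 10.2% of the gene end summits and 5.90% of other distal summits, while PU.1, CEBP, RUNX, AP-1, IRF and GATA had the lower share at gene ends.

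Motifs of the myeloid factors were present at shares close to or below those of other distal regions. PU.1 was matched in 117 regions (8.44%), against 8.75% of other distal regions and 7.54% of all regions. C/EBP was matched in 121 (8.72%), against 10.7% of other distal regions and 9.27% of all regions, and its share was the lower one on 16 of 20 chromosomes. Within bands of GC the C/EBP shares lay close together, at 13.2% at gene ends and 14.3% at other distal regions for 40 to 50% GC, 7.87% and 7.86% for 50 to 60%, and 2.61% and 2.86% for 60% or more. From 1 to 2 kb away from gene ends C/EBP was matched in 7.97% of the regions inside genes and 8.31% of those downstream. RUNX was matched in 89 (6.42%), against 7.34% of other distal regions and 6.21% of all regions. In the windows 500 bp away the shares at gene ends were 0.613% for PU.1, 3.82% for C/EBP and 2.78% for RUNX. Of the 4 motifs CTCF, PU.1, C/EBP and RUNX, 949 regions held none, 407 held 1 and 31 held 2.

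The AP-1 motif (TGANTCA) was found in 62 regions (4.47%), against 6.58% of other distal regions and 5.65% of all regions, and the IRF motif (GAANNGAAA) in 72 (5.19%), against 6.10% of other distal and 5.29% of all regions. The E-box (CAGCTG) was found in 129 (9.30%), against 7.89% of other distal and 7.50% of all regions, and the motif of KLF and SP factors (GGGCGGGG) in 35 (2.52%), against 1.61% and 4.54%. An ETS motif (CCGGAAGT) was found in 8 regions (0.577%), against 0.458% of other distal and 1.15% of all regions. The GATA motif (AGATAA) was the single one of the 10 with a lower share at the summits, 42 regions or 3.03%, than in windows 500 bp away, at 4.51%; other distal regions had 3.61% and all regions 3.11%. Both strands were searched, and a match says only that these letters occur in the window.

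Poly(A) signals were rare at the summits. The letters AATAAA on the strand of the gene occurred in 34 of 1387 summit windows (2.45%), against 6.49% of windows 500 bp to each side. They were not counted at other distal regions, so the low share is not shown to be particular to gene ends. AATAAA holds no G or C, and the summit windows had a median GC of 53.5%. Position differed too: the last 100 bp of genes, where the signal is frequent, held only 22 summits, while windows 500 bp away can fall there. The parts of base composition and of position were not tested. Of the 1318 genes with such a region, 60.2% had the signal in their last 50 bp, against 59.1% of all 21938 protein-coding genes. Summits lay in annotated repeats in 9.23% of the regions, against 10.5% of other distal regions and 9.22% of all regions.

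The 10 highest folds among regions in both replicates' lists were spread over genes of many roles. Gyg, which encodes glycogenin, the primer of glycogen synthesis, led with a fold of 19.7 in the joint list, 20.2 in replicate 1 and 16.4 in replicate 2, at 284 bp downstream of the gene. Behind Csrp1, a LIM domain protein of the actin cytoskeleton, the fold was 19.03 in the joint list, 20.4 in replicate 1 and 15.6 in replicate 2, with the CTCF motif printed above. Gm10037, a predicted gene, had 18.6 in the joint list, 17.6 in replicate 1 and 16.7 in replicate 2 at 261 bp downstream, with AP-1 and IRF motifs. Colgalt2, a collagen galactosyltransferase, had 18.4 in the joint list, 18.9 in replicate 1 and 14.9 in replicate 2 at 732 bp downstream. All 4 lay in intergenic DNA.

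Of the other 6, 4 lay in 3′ UTRs. These were Plppr4, a membrane protein of neurons (18.3 in the joint list, 17.5 in replicate 1, 16.2 in replicate 2), Ap3m1, a subunit of the AP-3 adaptor that sorts cargo to lysosome-related organelles (18.2, 17.6 and 16.2 in the same order), Lars2, the mitochondrial leucyl-tRNA synthetase (18.1, 20.5 and 13.2), and Ssbp2, a partner of the LDB1 complex (17.9, 19.9 and 13.9). Nacc2, a BTB domain repressor, had a fold of 18.1 in the joint list, 18.8 in replicate 1 and 14.1 in replicate 2 at 269 bp downstream. Ccr2, the chemokine receptor that draws monocytes out of the bone marrow, had 17.8 in the joint list, 17.3 in replicate 1 and 15.3 in replicate 2 in an intron 802 bp before the gene end. The fold was higher in replicate 1 than in replicate 2 in all 10.

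**Figure D5:**
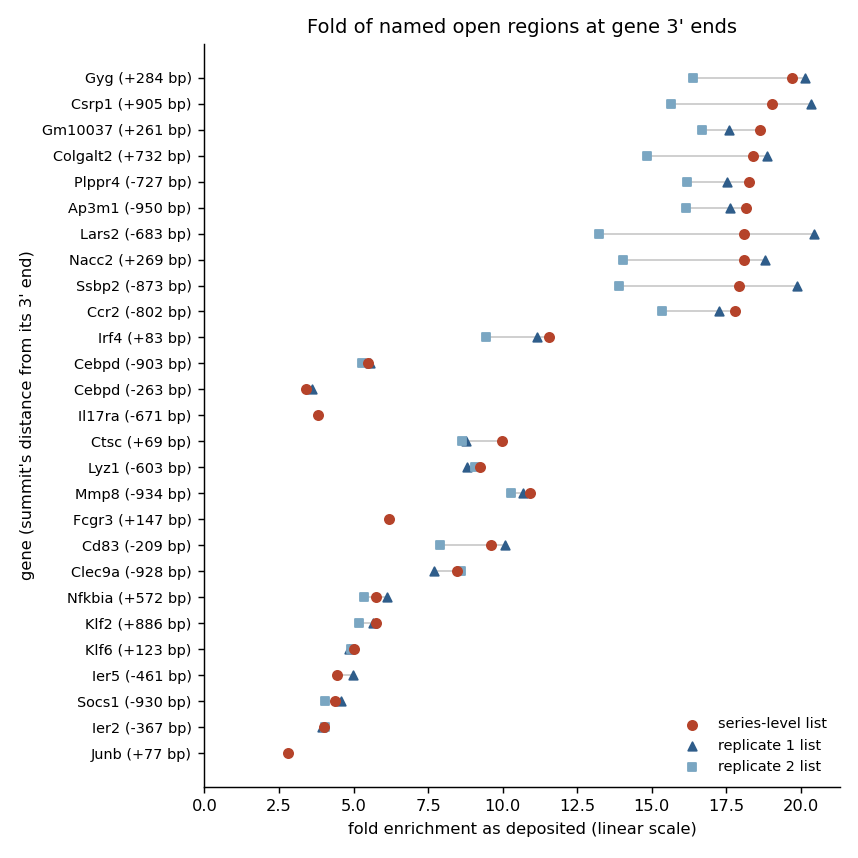
Fold enrichment as deposited (x axis, linear) of named regions (y axis, gene and distance of the summit from its 3′ end), with a circle for the list of both replicates, a triangle for replicate 1 and a square for replicate 2; a missing triangle or square means no overlapping region in that list. The 10 strongest lie between 17.8 and 19.7 in the joint list, Irf4, Mmp8, Ctsc, Lyz1 and Cd83 between 9.24 and 11.5, and the immediate early genes from Junb to Nfkbia between 2.82 and 5.77.

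Folds of the weakest 5 were 2.39 behind Kctd12, 2.69 behind Fam89b, 2.73 behind Scnn1a, 2.80 inside Trp53tg5 and 2.82 behind Junb. None of these 5 was met by both replicates. The regions at Kctd12 and Trp53tg5 overlapped wider regions of 1 replicate, at a fold of 9.50 in replicate 2 for Kctd12 and 10.8 in replicate 1 for Trp53tg5, whose summits lay 352 bp and 312 bp away, so these folds belong to neighbouring summits. The widest 5 were those of Nr1h4, the bile acid receptor (1643 bp), Ctdsp1, a phosphatase of RNA polymerase II (1576 bp), Hist1h1b, a linker histone (1468 bp), Atg14, a regulator of autophagy (1443 bp), and Rab20, a small GTPase (1401 bp). All of these were in both replicates' lists, with folds from 6.10 to 10.6. The summit at Hist1h1b lay 372 bp downstream of this short gene and 1114 bp from its TSS. That region reached past the TSS, so it covered the whole gene and its promoter as well as its 3′ end.

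The 5 summits nearest to a gene end lay 5 bp inside Arl8b, 6 bp downstream of Dtx4, 9 bp downstream of Apoa2, 9 bp inside Ticam1 and 11 bp inside Krt83. Their folds were 4.89, 5.36, 3.05, 7.16 and 9.56 in that order, and all but that of Apoa2 were in both replicates' lists. Ticam1 encodes the adaptor TRIF of Toll-like receptors, and its summit held a C/EBP motif. The highest fold with a C/EBP or a RUNX motif was that of Rab3c, a small GTPase of vesicle release (16.9 in the joint list, 16.9 in replicate 1, 14.2 in replicate 2). For the E-box it was that of Lpxn, the adaptor leupaxin (16.0), for KLF and SP that of Ppm1l, a protein phosphatase (17.5), and for ETS that of Mettl8, a tRNA methyltransferase (14.3).

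By gene, 1314 of 21853 protein-coding genes with a coding transcript (6.01%) had such a region at the nearest gene end, 65 of them more than 1. The most was 3, at Cep19, Dnajc12, Nsl1 and Serpinb5. None of those at Cep19 was in both replicates' lists. Neither replicate's list met the regions at Nsl1 with folds of 3.69 and 3.43, at Dnajc12 with 3.45 and at Serpinb5 with 5.26. The others at these last genes overlapped regions of both lists. An open promoter was found in 73.1% of the genes with a region at their end and in 60.1% of those without, beside 60.9% of all genes. The difference had the same direction in each of 4 classes of gene length, from 57.3% against 37.2% among the shortest genes to 84.1% against 74.5% among the longest, and was smallest in the third, at 73.5% against 72.1%. A gene end of the other strand lay within 1 kb of 6.90% of the ends of genes with such a region and of 9.08% of all gene ends. Each region was counted for its nearest gene end alone, although 77 regions had ends of both strands within 1 kb. This leaves out the partner genes of shared regions and lowers the first share, so the direction of this contrast is not established.

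Small numbers of genes in each myeloid list had such a region, at shares close to or above the 6.01% of all protein-coding genes. Among 19 myeloid transcription factors, 2 had one (10.5%). Behind Irf4, which acts in monocyte, dendritic cell and B cell development, the fold was 11.5 in the joint list, 11.2 in replicate 1 and 9.45 in replicate 2, at 83 bp past the end and with a PU.1 motif. Cebpd, a C/EBP family factor, had a pair in its 3′ UTR: one 903 bp before the end with a fold of 5.49 in the joint list, 5.55 in replicate 1 and 5.30 in replicate 2, and one 263 bp before the end with a PU.1 motif and a fold of 3.42 in the joint list and 3.62 in replicate 1, with no region in replicate 2. Among 14 myeloid cytokine receptors, 1 had one (7.14%): Il17ra, a subunit of the interleukin-17 receptor, in its 3′ UTR (fold 3.803), which neither replicate's list met. Csf1r, the receptor for M-CSF, shared a region with the end of Hmgxb3, nearer to the summit, with a fold of 10.3 in the joint list, 11.2 in replicate 1 and 8.98 in replicate 2.

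Among 16 primary granule genes 2 had a region (12.5%, against 6.01% of all protein-coding genes), and both summits held a C/EBP motif. Ctsc had a fold of 9.97 in the joint list, 8.76 in replicate 1 and 8.65 in replicate 2, at 69 bp past the gene end, with a noncoding TSS 521 bp away. Lyz1, a lysozyme gene, had 9.24 in the joint list, 8.81 in replicate 1 and 9.08 in replicate 2 in its 3′ UTR; Lyz1 and its neighbour Lyz2 are close copies, and how reads that fit both were placed is not stated in the sources used here. Mmp8, the neutrophil collagenase, was the 1 of 18 late neutrophil genes with a region (5.56%), in its 3′ UTR and with a C/EBP motif, at 10.9 in the joint list, 10.7 in replicate 1 and 10.3 in replicate 2. Among 18 monocyte and macrophage genes, Ccr2 and Fcgr3 had one (11.1%). That of Fcgr3, an Fc receptor for IgG, had a fold of 6.17 at 147 bp downstream and was met by neither replicate's list.

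The list of immediate early genes and genes with AU-rich transcripts, the longest of the lists, had the highest count, 7 of 30 (23.3%), against 6.01% of all protein-coding genes. Their folds were low, and among regions with a fold at or above the median of the series none of the 30 genes had one, against 2.595% of all protein-coding genes. With 30 genes, having none cannot be set apart from that share. Nfkbia, the inhibitor of NF-κB, had 5.77 in the joint list, 6.12 in replicate 1 and 5.34 in replicate 2. Klf2 and Klf6, Krüppel-like transcription factors, had 5.75 and 5.02 in the joint list. Ier5 had 4.43, Socs1, a suppressor of cytokine signalling, 4.36, Ier2 4.01 and Junb, an AP-1 subunit, 2.82. Nfkbia, Klf2, Klf6, Socs1 and Ier2 were in both replicates' lists, Ier5 in that of replicate 1 and Junb in neither. All 7 folds lay below 7.43, the median of the regions at gene ends. Their summits were 1154 bp from the nearest protein-coding TSS for Ier2, the closest, and 9035 bp for Klf6, the farthest.

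Genes of other blood lineages with such regions numbered 2 or 3 a list in the lists described next, to be read against 6.01% of all protein-coding genes. Of 18 stem and multipotent progenitor genes 3 did (16.7%): Lmo2, with CTCF and GATA motifs and in both replicates' lists (fold 7.34), Procr, met by replicate 2 alone (6.96), and Tal1, met by neither (6.22). Of 15 erythroid genes 2 did (13.3%): Hbb-bt, a β-globin gene with close copies in its cluster, had one at 165 bp downstream (8.98 in the joint list, 8.90 in replicate 1, 7.84 in replicate 2) with a PU.1 motif, and Tal1 is on this list too. Of 12 dendritic cell genes 2 did (16.7%): Cd83 had one with a PU.1 motif in its 3′ UTR (9.60 in the joint list, 10.1 in replicate 1, 7.89 in replicate 2) and Clec9a another, in both replicates' lists (8.47). Of 15 B cell genes 2 did (13.3%): Ebf1, an early B cell transcription factor, had 14.7 in the joint list, 14.1 in replicate 1 and 11.2 in replicate 2, and Blk 6.23 with neither replicate; both summits held a CTCF motif.

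Among the lists of cells unrelated to blood, 2 of 14 hepatocyte genes (Pck1 and Apoa2, 14.3%), 2 of 13 muscle genes (Acta1 and Myod1, 15.4%) and 1 of 12 endothelial and stromal genes (Kdr, 8.33%) had a region at their end, against 6.01% of all protein-coding genes. Those of Apoa2 and Myod1 were met by neither replicate's list. Pck1 reached a fold of 11.9 in the joint list (14.6 in replicate 1, 8.01 in replicate 2), Acta1 11.1 (13.4 and 7.44) and Kdr 13.3 (13.1 and 11.9), each without an open promoter of the gene in these cells. Single genes of the T and NK cell (Cd3d of 17, 5.88%), the eosinophil, basophil and mast cell (Ear2 of 12, 8.33%) and the cell cycle list (Ccnd3 of 18, 5.56%) had one. The summit at Ear2 lay 18 bp from a noncoding TSS and 1279 bp from the TSS of Ear2 itself. None of 14 megakaryocyte, 15 housekeeping, 15 neural and 10 CTCF and cohesin genes did.

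For 3 genes with a published enhancer behind or at their 3′ end, the lists gave differing pictures. Junb, whose 3′ enhancers respond to growth factors, had only the weak region named above, 77 bp past the gene end in an annotated 3′ UTR, where the end of Prdx2 also lies within 1 kb. Lyz2, whose 3′ enhancer acts in macrophages, had none within 1 kb, and the nearest region lay 2497 bp downstream with a fold of 9.85 in the joint list, 12.02 in replicate 1 and 7.16 in replicate 2. Tnf, whose downstream enhancer acts in immune cells, had none within 1 kb, and the nearest beyond its end lay 3542 bp downstream, at the end of Ltb.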

How the data were processed

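The deposited peak lists of 1 group with 2 replicates were used, in mm10 per the submitters' file list; aligner, peak caller, versions and any Tn5 shift are not stated in the sources used here. Each row carries, as deposited by the authors, a fold enrichment (a ratio), p and q values on a −log10 scale (not used for any result) and a summit position. The files hold no counts, so depth is unknown and a missing region is only one below a threshold. The authors' conservative list (both replicates' reads) was the main one, and each replicate's thresholded list gave values per replicate. In 2 ranked lists, 16 unnamed columns were not used.

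Rows sharing 1 bp or more were merged, with the summit of the row with the highest fold. A replicate's fold is that of its strongest overlapping region. GENCODE vM21 and GRCm38.p6 were read with Python 3.11.15, numpy 2.4.6, pysam 0.24.0 and samtools 1.23.1; intervals used scipy 1.17.1 and figures matplotlib 3.10.9. TSSs were those of protein-coding transcripts of protein-coding genes. Motifs were searched 50 bp to each side of summits, and flanking windows were centred 500 bp away.

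Rule, members, 21 gene lists (301 of 302 symbols matched) and motifs were chosen with earlier results of these data known. Named were the 10 highest folds in both replicates, the 5 lowest, the 5 widest, genes with most regions, the highest fold per motif, the 5 nearest to an end, and genes of the lists. Csf1r and the windows shown for Ebf1, Irf4, Ctsc, Lyz1 and Mmp8 were added after their values were seen. No test was run, as there is 1 group: shares and medians stand beside those of other regions, and chromosomes show spread, not replication. The code was tested on simulated data and found 418 of 418 planted members among 1000 regions.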

Additional observations from a re-analysis of the deposited data

How the results depend on the processing

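No paired analysis was possible because the series holds a single group. The contrast of the immediate early list with all genes was not kept at high folds (last paragraph). There, a list of 30 genes is too short to set a count of 0 apart from 2.595%. The contrasts of motifs other than CTCF, the low point at the gene end and the contrast of open promoters were not recomputed under most alternatives. Of 113 values of the main results under the alternatives, 56 kept within the SD between the 2 replicate lists (for the share in both replicates, its 95% Wilson interval; for the number, 1.5 times) and 57 moved further; where the lists nearly coincide, as for the downstream share (SD 0.112 points) and PU.1 (0.0247 points), small shifts count as moves. For results judged by this SD, the values from leaving out 1 replicate both set it and count among the 113. For those values it is not an independent measure. The cause of a move was not tested where the construction does not show it.

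Leaving out 1 replicate gave 1.72% to 1.81% of all regions, a median fold of 7.05 to 8.55, 54.9% to 55.0% downstream, 25.8 to 32.9 per Mb, CTCF in 8.11% to 10.4%, PU.1 in 8.43% to 8.47% and 4.11% to 5.18% of genes. The looser replicated list gave 2419 regions (1.935% of all), 35.6% in both replicates, a median fold of 5.43, 56.1% downstream, 67.4 per Mb, PU.1 in 7.81% and 10.04% of genes. The optimal list gave 55.4% downstream and PU.1 in 8.495%. A limit of 500 bp gave 715 regions (0.9515%), 56.4% downstream, PU.1 in 7.55% and 3.17% of genes; 2 kb gave 2748 (3.66%), PU.1 in 8.04% and 11.4% of genes. Ends of every coding transcript gave 2206 (2.94%), 55.2% downstream, PU.1 in 8.205% and 9.15% of genes. Keeping 2 kb clear of a TSS gave 1.67%, 55.4% downstream and PU.1 in 8.21%; keeping clear of TSSs of all genes gave 1.69%, 55.8% and 8.66%; keeping clear of every transcript of protein-coding genes, an alternative chosen after seeing the data, gave 1.78%, 56.1% and 8.53%. Regions with a fold at or above the list's median numbered 571 (1.515%), with 88.1% in both replicates, 55.3% downstream, 15.9 per Mb, PU.1 in 8.23% and 2.595% of genes. Midpoints gave 54.7% downstream, CTCF in 6.75% and PU.1 in 5.08%. Windows of 25 bp gave CTCF in 6.85% and PU.1 in 4.47%, and those of 100 bp PU.1 in 11.3%. The looser replicate lists gave 95.9% in both, and all DNA at that distance 53.7 per Mb.

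CTCF was more frequent at gene ends than at other distal regions under each of the 8 alternatives compared (optimal and replicated list, each replicate, both windows, midpoints, regions at or above the median fold), with the smallest gap in windows of 25 bp, 6.85% against 4.49%. Counts in the 21 gene lists are small, and 87 of 273 moved by over 1.5 times: among regions at or above the median fold, 0 of the 30 immediate early and AU-rich transcript genes had one, against 2.595% of all genes, and within 2 kb of the end 13 did, against 11.4%. Depth is unknown, so absence from a list sets no limit on accessibility.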
